A study of Mus musculus with 4 samples.

Results

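The genes described here encode the mitochondrial carriers of solute carrier family 25, and they were found by name: every row of the deposited table whose gene symbol is Slc25a followed by a number. This rule found 47 of 43346 genes and used no measured value. The hearts came from C57BL/6 mice aged 6 weeks, 2 wild type (WT) and 2 labelled PRMT1-cKO, in which the arginine methyltransferase PRMT1 was deleted in cardiomyocytes. The series set out to compare mRNA profiles and splicing between these genotypes. The sources used here name neither the Cre driver nor the alleles of the WT mice. Each library is labelled as a separate mouse heart, so p-values measure the spread between 2 hearts of each genotype.

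Carriers of this family are small proteins with a repeated fold, and most sit in the inner mitochondrial membrane, where they exchange or co-transport a solute between the cytosol and the matrix. ADP/ATP and phosphate carriers feed ATP synthase and release its product. The carnitine-acylcarnitine carrier brings fatty acyl groups in for oxidation, and the aspartate-glutamate and oxoglutarate carriers work in the malate-aspartate shuttle, which moves reducing equivalents from the cytosol. Other members move amino acids, nucleotides, cofactors or iron. Heart muscle depends on this exchange because most of its ATP is made in mitochondria.

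Each gene has 3 deposited read counts: gene reads, which are the sum of the other 2, exon reads and intron reads. Libraries held between 18291730 and 25509854 gene reads but only between 544891 and 764806 exon reads. Exon reads made up 2.45 and 2.51% of gene reads in WT against 4.18 and 3.60% in PRMT1-cKO, while the mitochondrial ribosomal RNA mt-Rnr2 took 64.9 and 65.8% in WT against 52.8 and 51.2% in PRMT1-cKO. The targeted gene could not check the labels: Prmt1 had 33 and 18 gene reads in WT against 33 and 44 in PRMT1-cKO, none of them exon reads, and the exons that were deleted are not given. Of 5 cardiomyocyte markers all were detected, which matches the labelled tissue, and their summed gene reads were 2439 and 2734 counts per 1000000 of the scaled library total (CPM) in WT against 1555 and 1052 in PRMT1-cKO. The 5 fibroblast markers summed to 134 and 189 CPM in WT against 820 and 440, and the 5 leukocyte markers to 20.2 and 24.8 CPM against 62.9 and 47.7. Of the cardiomyocyte markers 4 of 5 were lower, and all 5 fibroblast and all 5 leukocyte markers were higher, while the 5 endothelial markers summed to 173 and 170 CPM against 133 and 145 with 1 lower. These marker sums moved with genotype beside every carrier result below, and their part in those results was not tested. In whole hearts, fewer cells of a type and less RNA in each cell cannot be told apart.

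The exon reads of a gene are almost only reads across an exon junction: 29 of 2605955 crossed none. The 3 coding junctions of Slc25a4, the ADP/ATP carrier of heart and skeletal muscle, and of its paralog Slc25a5 are shown because Slc25a4 held more exon reads than any other carrier and reads of close paralogs can be confused. Each sequence joins the last 20 bases of an exon, in lower case, to the 20 bases of the next one, in capitals, read 5′ to 3′ from GRCm38 with GENCODE M21 exons.
Slc25a4 junction 1, minus strand of chr8, bases 46210812 and 46209508: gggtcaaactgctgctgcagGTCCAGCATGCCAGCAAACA
Slc25a5 junction 1, plus strand of chrX, bases 36795841 and 36796843: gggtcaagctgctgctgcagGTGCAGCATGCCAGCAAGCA
Slc25a4 junction 2, bases 46209022 and 46208538: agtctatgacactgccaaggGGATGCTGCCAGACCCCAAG
Slc25a5 junction 2, bases 36797329 and 36797736: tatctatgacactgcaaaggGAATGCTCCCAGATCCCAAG
Slc25a4 junction 3, bases 46208398 and 46207620: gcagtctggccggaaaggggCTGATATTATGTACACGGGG
Slc25a5 junction 3, bases 36797876 and 36798387: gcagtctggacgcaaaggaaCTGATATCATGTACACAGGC
The junctions lie after coding bases 111, 598 and 739 in both genes. The paralogs differ there at 3, 6 and 7 of the 40 bases shown. Within this pair, a read that spans a junction can be told apart where it covers those bases. Other genome sequences that match these junctions were not searched for. The sources used here do not give the treatment of reads with several matches.

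Of the 47 carriers, 38 had enough gene reads to be tested, and 12 of these changed between genotypes (edgeR quasi-likelihood F test, with p adjusted over all 13869 genes tested by the Benjamini-Hochberg method and a threshold of 0.05). Lower levels in PRMT1-cKO were found for 10 carriers and higher levels for 2. Slc25a34, Slc25a20, Slc25a33, Slc25a4, Slc25a3, Slc25a31, Slc25a11, Slc25a38, Slc25a42 and Slc25a26 fell, in order of size, and Slc25a37 and Slc25a44 rose. Among all genes tested, 22.7% were called, 11.5% higher and 11.2% lower, and among the carriers tested 26.3% were lower. The median log2 change was -0.18 over the carriers tested and 0.01 over all genes tested. A further 3 carriers had an unadjusted p under 0.05 without passing the adjustment, which makes 15 at that level.

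**Figure D1:**
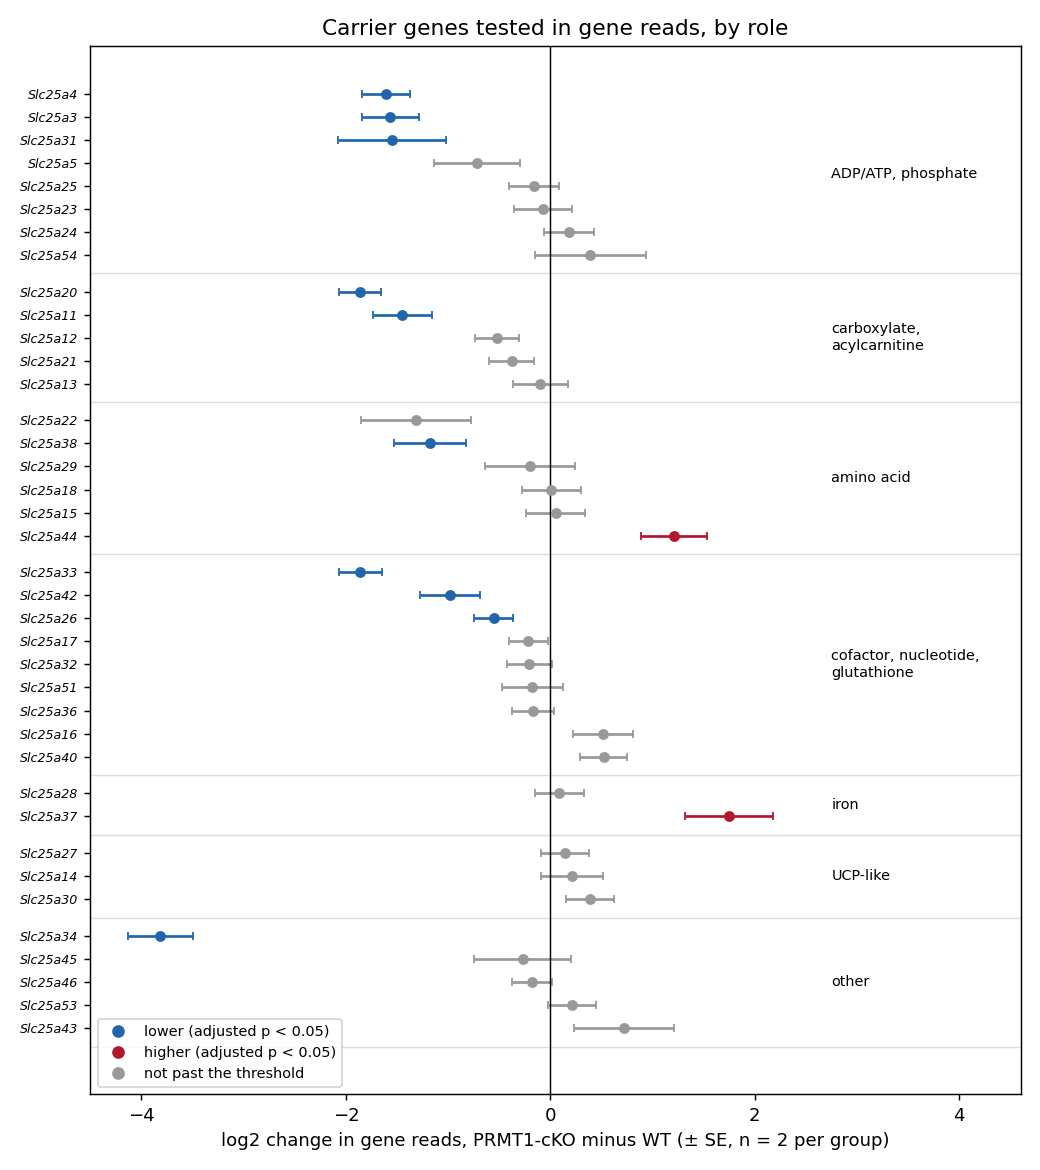
Log2 change in gene reads (x axis, PRMT1-cKO minus WT, with SE) for the 38 carriers tested, grouped by role. Blue points are the 10 carriers that fell, red points the 2 that rose, and grey points the 26 that did not pass; Slc25a34 lies farthest from 0.

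The call count depended on the library and on the scaling. Without WT replicate 1 it was 7, and DESeq2 also called 7; Slc25a26, Slc25a31, Slc25a38, Slc25a42 and Slc25a44 were lost in both cases. Scaling by total gene reads alone, without the TMM correction used here, called 9 carriers higher and 6 lower. That scaling moved the median of all genes to 0.53 on the log2 scale and called 4578 of them higher and 665 lower, against 1601 and 1553 here. The falls of Slc25a34, Slc25a20, Slc25a33, Slc25a4, Slc25a3 and Slc25a11 passed under all 12 alternatives run, with 0.0101 as the largest adjusted p.

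Exon reads, which stand for spliced RNA, passed the read filter for 18 carriers. In them 7 carriers fell, 1 rose and 10 did not pass, against 36.2% of all 4756 genes called, 17.6% higher and 18.7% lower. The falls were those of Slc25a34, Slc25a20, Slc25a26, Slc25a11, Slc25a3, Slc25a33 and Slc25a4, and all 7 had also fallen in gene reads. The rise was that of Slc25a24. Intron reads passed it for 37 carriers, of which 7 fell and 2 rose, against 21.8% of all genes called, 10.8% higher and 11% lower. Scaling by total reads alone gave 7 higher and 4 lower in intron reads, and without WT replicate 1 the count of 9 became 5. Slc25a3, Slc25a4, Slc25a33 and Slc25a34 fell in all 3 measures. Of the 12 carriers called in gene reads, 5 had too few exon reads to be tested in them, so their change rests on intron reads.

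The carriers differed widely in exon reads per length. These are almost only junction reads, which dividing by exon length does not correct for. Slc25a13, for one, had 4092 gene reads and 0 exon reads. The order below therefore describes these counts and is not a ranking of RNA abundance between genes. Exon reads per kilobase of exon and per 1000000 exon reads put Slc25a4 highest, at 1218 and 1451 in WT against 379 and 467 in PRMT1-cKO. Slc25a20, the carnitine-acylcarnitine carrier, came next in WT at 236.8 and 237.6, and Slc25a3, the phosphate carrier, followed at 154.1 and 166.7. Slc25a33, Slc25a11, Slc25a17 and Slc25a46 had WT means between 60.2 and 67.4 on this scale, and the WT hearts of Slc25a17 differed by more than this range (SD 10.6, n = 2), so the order among these 4 is not resolved. The 10 carriers with the highest mean level over the 4 libraries held 92.7% of the summed carrier level. Of these 10, 7 fell in exon reads, where 18.7% of all genes tested were lower. The other 3 were Slc25a17, Slc25a46 and Slc25a30. Of the carriers ranked below these 10 only 8 passed the read filter in exon reads, and none of those 8 fell. Their exon reads over the 4 libraries ran from 35 for Slc25a5 to 203 for Slc25a23, and few reads limit what could be called at the low end. Slc25a23 and Slc25a12, the latter with 169, had more exon reads than Slc25a26, which fell on 105. Their log2 differences in exon reads were -0.09 ± 0.30 and -0.04 ± 0.28.

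Summed over all carriers, exon reads came to 5468 and 6197 CPM in WT and to 2118 and 2315 CPM in PRMT1-cKO. With the 7 carriers that fell left out, the other 40 summed to 758 and 840 CPM in WT and 773 and 779 CPM in PRMT1-cKO, a description with no test because the call chose the genes. Slc25a4 made up 59.1 and 61.7% of the summed level per length in WT against 49.9 and 53.5% in PRMT1-cKO. These shares describe the counts and not RNA abundance. In the order of mean levels Slc25a34 went from the 8th place in WT to the 19th in PRMT1-cKO. Its WT level of 44.2 ± 1.65 (SD, n = 2) per length lay beside that of Slc25a26 at 38.5 ± 11.5. In PRMT1-cKO it lay at 2.34 ± 3.31 beside Slc25a16 at 2.42 ± 2.96, so neither exact place is resolved. Slc25a11 stood 5th in WT and 10th in PRMT1-cKO, and Slc25a17 6th and 2nd, but their WT places are among those not resolved. In PRMT1-cKO Slc25a17 lay at 60.3 ± 14.1 (SD, n = 2) per length and Slc25a46 at 53.4, so that 2nd place is not resolved either. Slc25a17 itself, a peroxisomal carrier of coenzyme A and related cofactors, had 56 and 62 exon reads in WT against 62 and 75 in PRMT1-cKO, a log2 difference of -0.04 ± 0.25 (SE, n = 2 per group).

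**Figure D2:**
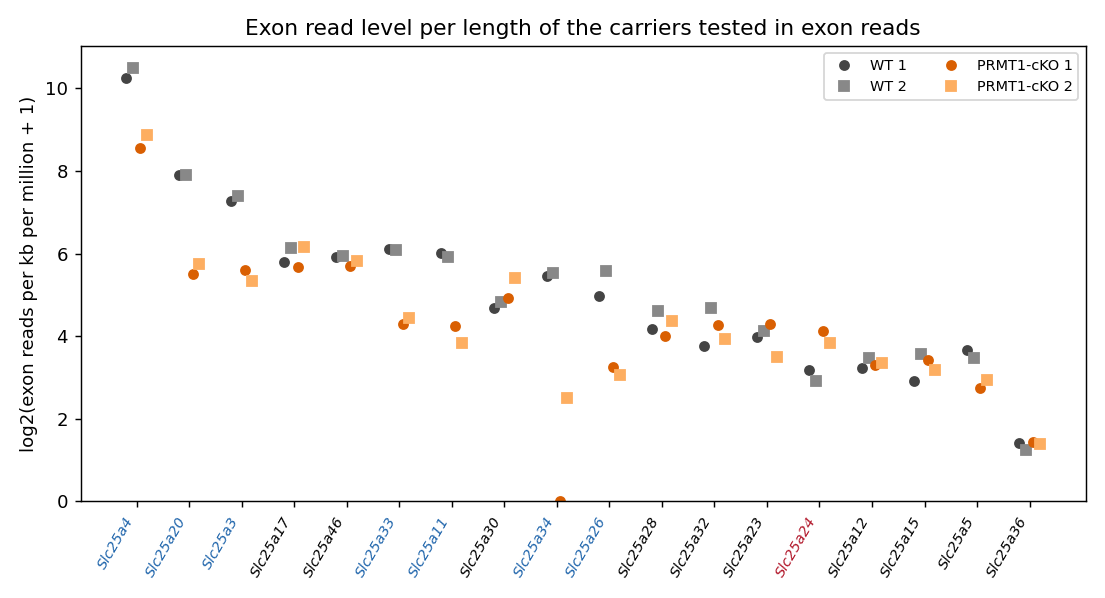
Exon read level per length (y axis, log2 of exon reads per kilobase and 1000000 reads, plus 1) in each library for the 18 carriers tested in exon reads, ordered by mean level. Names in blue mark the 7 carriers that fell and red the 1 that rose. From Slc25a4 to Slc25a26 the carriers in blue show both PRMT1-cKO libraries below both WT libraries. The call chose the names in blue, so this separation adds no support to it.

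Of 9 ADP/ATP, ATP-Mg/phosphate and phosphate carriers, 8 were tested in gene reads, 3 fell and none rose. Over all genes tested, 11.2% were lower and 11.5% higher. Slc25a4 (chr8:46206797-46211284, minus strand) had 2025 and 2024 gene reads in WT against 725 and 784 in PRMT1-cKO. Nearly all were exon reads, 1773 and 1834 against 659 and 704. Both PRMT1-cKO libraries lay far below both WT libraries in each measure. In exon reads the means were 3141 ± 388 CPM and 995 ± 148 CPM (SD, n = 2 each), a 3.16-fold fall with a log2 change of -1.66 ± 0.14 (SE, adjusted p = 1.41e-07).

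Slc25a5, the ADP/ATP carrier of most other tissues, had few reads in these hearts. It had 12 and 9 exon reads in WT against 7 and 7 in PRMT1-cKO, and its log2 difference of -0.82 ± 0.52 did not pass (adjusted p = 0.237). Slc25a4 made up between 98.5 and 99.3% of the summed level per length of this pair in each library. This share carries the limits given above for this scale and for reads with several matches, and is not a ratio of RNA abundance. The testis ADP/ATP carrier Slc25a31 had 20 and 12 gene reads in WT against 4 and 8 in PRMT1-cKO, of which 2 were exon reads. Its fall of -1.55 ± 0.53 on the log2 scale (adjusted p = 0.0406) was lost with any library but PRMT1-cKO replicate 2 left out. The adjusted p was 0.443 without WT replicate 1, 0.151 without WT replicate 2 and 0.166 without PRMT1-cKO replicate 1.

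Slc25a3 (chr10:91116574-91124059, minus strand) had more gene reads than any other carrier, 3477 and 3181 in WT against 1497 and 992 in PRMT1-cKO, but only 14.9% of them were exon reads. The annotated snoRNA gene Gm24119 lies within it on the same strand, and its reads cannot be separated from those of Slc25a3. Exon reads numbered 529 and 497 in WT against 194 and 141 in PRMT1-cKO, without overlap between the genotypes. They fell 3.68-fold, by 1.88 ± 0.15 on the log2 scale (adjusted p = 9.93e-08), and intron reads fell by 1.51 ± 0.27 (adjusted p = 9.23e-05).

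Slc25a24, a calcium-regulated ATP-Mg/phosphate carrier, was the carrier with higher exon reads. It had 17 and 12 exon reads in WT against 42 and 29 in PRMT1-cKO, a log2 change of 1.03 ± 0.38 (adjusted p = 0.0431). Its gene reads overlapped between genotypes, at 99 and 54 against 96 and 95. The exon call was lost with either WT replicate left out (adjusted p of 0.0816 without replicate 1 and 0.184 without replicate 2), without PRMT1-cKO replicate 1 (0.175) and with DESeq2 (0.211). That call was also lost with library size scaling and without a read filter, where no carrier rose in exon reads. The other calcium-regulated members Slc25a23 and Slc25a25 had log2 differences of -0.07 ± 0.28 and -0.16 ± 0.24 in gene reads.

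Of 7 carriers of carboxylates, acylcarnitines and the malate-aspartate shuttle, 5 were tested in gene reads and 2 fell, beside 11.2% of all genes lower. Slc25a20 (chr9:108662088-108684641, plus strand) had 341 and 297 exon reads in WT against 76 and 78 in PRMT1-cKO. The WT hearts lay at 552 ± 1.20 CPM and the PRMT1-cKO hearts at 112 ± 13.5 CPM (SD, n = 2 each). This was a 4.93-fold fall, by 2.30 ± 0.17 on the log2 scale (adjusted p = 4.13e-08). Its intron reads, 39 and 16 in WT against 26 and 33, overlapped between genotypes.

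Slc25a11, the oxoglutarate-malate carrier (chr11:70644196-70647479, minus strand), had 84 and 68 exon reads in WT against 28 and 18 in PRMT1-cKO. It fell 3.94-fold in exon reads, by 1.98 ± 0.28 on the log2 scale (adjusted p = 4.14e-05). The gene Rnf167 overlaps it on the opposite strand.

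The aspartate-glutamate carriers, which complete the shuttle with Slc25a11, gave no call in gene reads. Slc25a13, the form known from liver, had 1347 and 662 gene reads in WT against 669 and 1414 in PRMT1-cKO, none of them exon reads, and the genotypes overlapped (log2 difference -0.10 ± 0.27, adjusted p = 0.847). Slc25a12, the form of heart and brain, had 38 and 40 exon reads in WT against 48 and 43 in PRMT1-cKO, also overlapping after scaling. Its intron reads fell by 0.58 ± 0.21 on the log2 scale (adjusted p = 0.0428). That call was lost with either WT replicate left out (adjusted p of 0.207 without replicate 1 and 0.219 without replicate 2) and without PRMT1-cKO replicate 1 (0.243). The citrate carrier Slc25a1 and the dicarboxylate carrier Slc25a10 had at most 8 gene reads in any library and were not tested.

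Of 7 amino acid carriers, 6 were tested in gene reads, with 1 higher and 1 lower, beside 11.5% and 11.2% of all genes. Slc25a44, a carrier of branched-chain amino acids, had 24 and 21 gene reads in WT against 43 and 75 in PRMT1-cKO. It rose 2.31-fold, with a log2 change of 1.21 ± 0.33 (adjusted p = 0.00994), on reads that were nearly all intron reads. The call was lost without WT replicate 1 or PRMT1-cKO replicate 2, with adjusted p of 0.089 and 0.105.

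Slc25a38, a glycine carrier that supplies heme synthesis, had 48 and 35 gene reads in WT against 14 and 27 in PRMT1-cKO. It fell by 1.18 ± 0.35 on the log2 scale (adjusted p = 0.0193), a call lost without WT replicate 1 (adjusted p = 0.0991) or PRMT1-cKO replicate 1 (adjusted p = 0.0819). The ornithine carrier Slc25a15 had the most gene reads of this group, 51 and 46 in WT against 63 and 49 in PRMT1-cKO, with overlapping genotypes and a log2 difference of 0.05 ± 0.29. The other members tested, the glutamate carriers Slc25a18 and Slc25a22 and the basic amino acid carrier Slc25a29, ranged from -1.31 to 0.01 on the log2 scale without passing.

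Of 11 carriers of cofactors, nucleotides and glutathione, 9 were tested in gene reads and 3 fell, beside 11.2% of all genes lower. Slc25a33, a carrier of pyrimidine nucleotides (chr4:149744036-149774277, minus strand), had 379 and 309 gene reads in WT against 111 and 100 in PRMT1-cKO. The means were 17.4 ± 0.906 CPM and 4.82 ± 0.895 CPM (SD, n = 2 each), a 3.63-fold fall of -1.86 ± 0.21 on the log2 scale (adjusted p = 2.53e-06). Exon reads fell by 1.78 ± 0.27 and intron reads by 1.90 ± 0.21 on that scale (adjusted p of 8.22e-05 and 8.97e-08). An antisense gene model, Gm13068, overlaps it. Slc25a36, the other pyrimidine nucleotide carrier, had 251 and 178 gene reads in WT against 166 and 263 in PRMT1-cKO, and its log2 difference was -0.17 ± 0.21 (adjusted p = 0.631).

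Slc25a26 carries S-adenosylmethionine, the methyl donor that arginine methyltransferases use, into mitochondria (chr6:94500331-94604672, plus strand). It had 36 and 48 exon reads in WT against 12 and 9 in PRMT1-cKO, with no overlap. Exon reads fell 4.78-fold, by 2.26 ± 0.40 on the log2 scale (adjusted p = 3.29e-04). Gene reads, mostly intron reads, fell less, by 0.55 ± 0.19 on the log2 scale from 349 and 268 to 222 and 247 (adjusted p = 0.0424). The call in gene reads was lost without WT replicate 1 (adjusted p = 0.268) or WT replicate 2 (adjusted p = 0.251), and the gene Lrig1 overlaps it on the opposite strand.

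Slc25a42, a coenzyme A carrier, had 66 and 46 gene reads in WT against 27 and 36 in PRMT1-cKO, none of them exon reads. It fell by 0.98 ± 0.29 on the log2 scale (adjusted p = 0.0186), a call lost without WT replicate 1 (adjusted p = 0.136). The remaining 6 members tested had log2 differences between -0.21 and 0.52, none past the threshold. Among them were the folate carrier Slc25a32, with 116 and 81 gene reads in WT against 89 and 101 in PRMT1-cKO, and the NAD carrier Slc25a51, with 44 and 36 against 40 and 39.

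Both iron carriers were tested in gene reads. Slc25a37 (mitoferrin 1, the iron importer of developing red cells, chr14:69241848-69285112, minus strand) had 19 and 5 gene reads in WT against 49 and 39 in PRMT1-cKO. It rose 3.35-fold, with a log2 change of 1.74 ± 0.43 (adjusted p = 0.00518), and the call was lost without WT replicate 2 (adjusted p = 0.0624). Alas2, the heme synthesis enzyme of red cell precursors, moved with it, at 14 and 0 gene reads in WT against 39 and 55 in PRMT1-cKO. The globin genes Hba-a1, Hba-a2 and Hbb-bt had 0 reads in all 4 libraries and Hbb-bs had 3 reads in PRMT1-cKO replicate 2 alone. The part of red cell RNA in this rise was not tested, and 4 annotated gene models overlap Slc25a37. Slc25a28 (mitoferrin 2, the form of most tissues) had 77 and 73 gene reads in WT against 80 and 100 in PRMT1-cKO, with overlapping CPM values and a log2 difference of 0.09 ± 0.24 (adjusted p = 0.845).

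The 3 carriers that resemble uncoupling proteins all missed the threshold. Slc25a27, also called UCP4, had the most reads of them, 113 and 78 in WT against 87 and 150 in PRMT1-cKO, with a log2 difference of 0.14 ± 0.23 in gene reads (adjusted p = 0.731). Slc25a30 was the member with the most exon reads, 26 and 25 in WT against 37 and 45 in PRMT1-cKO, a log2 difference of 0.43 ± 0.33 in exon reads (adjusted p = 0.326). Gene reads of the third member, Slc25a14, differed by 0.21 on the log2 scale.

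The group of other carriers held the largest fall among the 38 tested. Slc25a34, a carrier whose substrate is not settled (chr4:141618824-141623821, minus strand, no overlapping gene), had 133 and 97 gene reads in WT against 7 and 11 in PRMT1-cKO. Its means were 5.78 ± 0.155 CPM and 0.402 ± 0.0824 CPM (SD, n = 2 each), a 14.1-fold fall of -3.81 ± 0.32 on the log2 scale (adjusted p = 7.26e-08). Exon reads numbered 71 and 65 in WT against 0 and 8 in PRMT1-cKO (log2 change -4.29 ± 0.55, adjusted p = 1.45e-05), and a count of 0 there allows up to 3.92 CPM, for counting error only. DESeq2 gave an adjusted p of 0.114 for exon reads, the highest over the alternatives for that value, the lowest being 8.27e-21. Intron reads fell by 3.32 ± 0.47 on the log2 scale (adjusted p = 3.1e-06). Of 4 brown fat markers tested, 2 fell beside it, Ucp1 and Cox8b, of which Cox8b is also a heart muscle gene. Cidea at -0.25 ± 0.25 and Plin1 at -0.19 ± 0.44 on the log2 scale did not pass (adjusted p of 0.545 and 0.818). The markers summed to 47.1 and 53.4 CPM of gene reads in WT against 9.23 and 8.49 CPM in PRMT1-cKO, and most of the WT sum was Cox8b, at 39.6 and 45 CPM. The part of such cells in the result was not tested.

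Slc25a46, an outer membrane protein of the family that acts in mitochondrial fission, had the most gene reads of this group, 452 and 363 in WT against 342 and 467 in PRMT1-cKO. Its exon reads, 162 and 142 against 166 and 155, corresponded to 263 ± 1.76 and 233 ± 12.5 CPM (SD, n = 2 each). The log2 difference of -0.18 ± 0.17 in exon reads did not pass (adjusted p = 0.445). Of the other members, Slc25a43, Slc25a45 and Slc25a53 did not pass, and Slc25a35, Slc25a47 and Slc25a48 had too few reads.

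**Figure D3:**
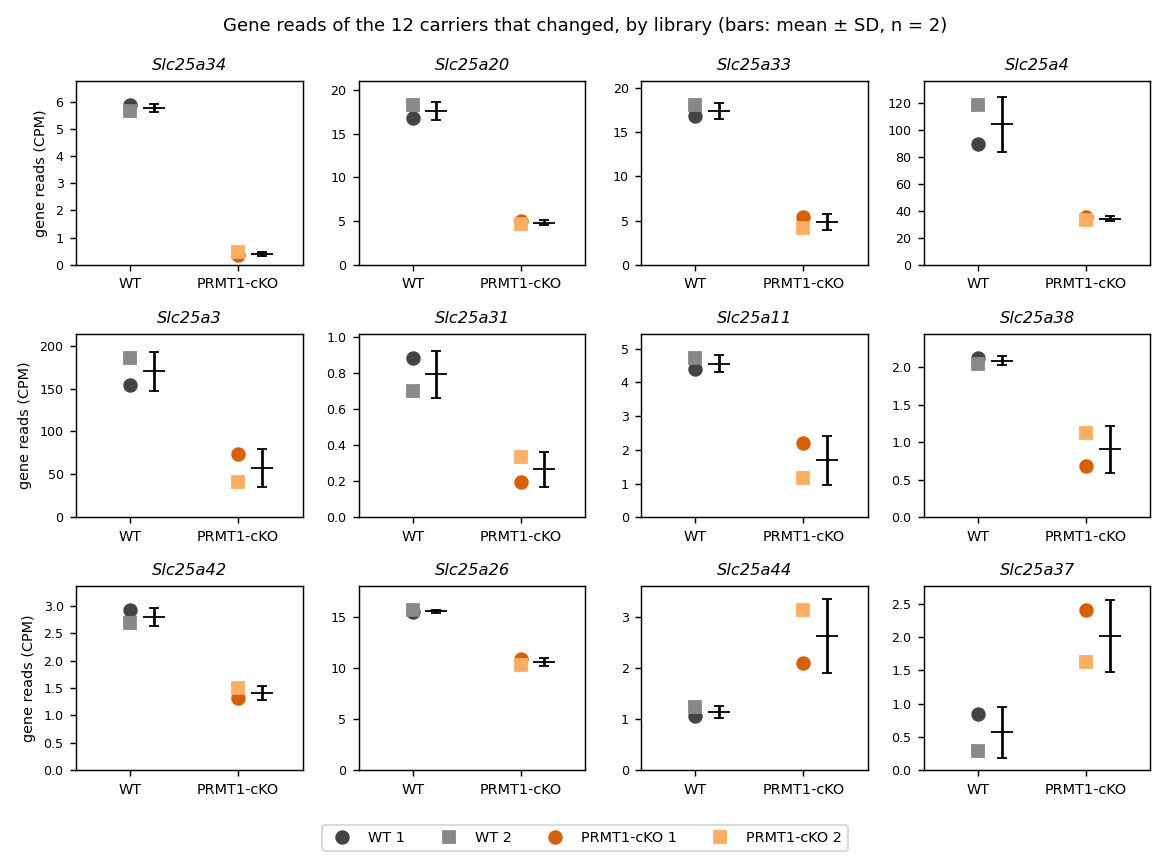
Gene reads of the 12 carriers that changed (y axis, CPM, each panel from 0 on its own scale), with a point for each library and the mean ± SD of each genotype beside the points. In the first 10 panels both PRMT1-cKO hearts lie below both WT hearts, and in the last 2, Slc25a44 and Slc25a37, they lie above. The call chose the panels, so this separation adds no support to it.

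The sequence before the start of Slc25a34 is shown because this gene fell most and because it alone, of the 36 carriers searched, held the core of a receptor motif. RefSeq promoter windows of GRCm38.p6, 250 bases before to 50 after a start, were found for 36 of 47 carriers, 46 windows in all. None held TNAAGGTCA (estrogen-related receptor, in 1.28% of all 32851 windows), CGCATGCG (core of the NRF1 site, 1.87%) or TGATGNAA (ATF4 with C/EBP, 3.97%) on either strand. The shorter AAGGTCA, the part of TNAAGGTCA chosen after that search, was in 4.72% of all windows and in 1 of the 46 carrier windows. In Slc25a34 it lies on the reverse strand, written in capitals, with its match beginning 119 bases before the start (chr4:141623835-141624084, minus strand, 5′ to 3′ up to the base before the start).
Slc25a34: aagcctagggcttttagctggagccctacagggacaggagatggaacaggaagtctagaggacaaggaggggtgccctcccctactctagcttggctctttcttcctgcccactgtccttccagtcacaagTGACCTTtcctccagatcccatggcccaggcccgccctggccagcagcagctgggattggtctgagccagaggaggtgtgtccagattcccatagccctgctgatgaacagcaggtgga
A match in these letters is a description of the sequence, and no binding was measured.

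Exon and intron reads of the same gene were compared for 17 carriers, to ask whether spliced RNA and the remaining reads changed by different amounts. Exon reads are almost only junction reads, and where reads within an exon were counted is not given. The split differed by gene: Slc25a13 had 4092 gene reads and 0 exon reads, while all 1062 gene reads of Cpt1b were exon reads. An unequal change need therefore not be a change in splicing. Slc25a20 and Slc25a26 passed, 2 of 17, against 3.6% of all 4196 genes, 1.84% with exon reads changed more upward than intron reads and 1.76% more downward. The exon minus intron difference in log2 change was -2.19 for Slc25a20 (adjusted p = 0.00233, Simes test in edgeR) and -1.77 for Slc25a26 (adjusted p = 0.0340). The median of this difference over all genes was 0.19 and over the 17 carriers 0.18, so these 2 carriers lay on the other side of 0 from both medians. Slc25a11 had a difference of -1.67 that did not pass (adjusted p = 0.374).

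The 4 other carriers with lower exon reads had differences that did not pass: Slc25a4 0.17, Slc25a33 0.22, Slc25a3 -0.24 and Slc25a34 -0.91 on the log2 scale. For these genes exon and intron reads had each fallen on their own. The calls of Slc25a20 and Slc25a26 rested on few libraries. Without WT replicate 1 or WT replicate 2 neither passed (adjusted p of 0.0906 and 0.792 for Slc25a20, 0.242 and 1 for Slc25a26), and without PRMT1-cKO replicate 2 Slc25a26 did not pass (adjusted p = 0.161).

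**Figure D4:**
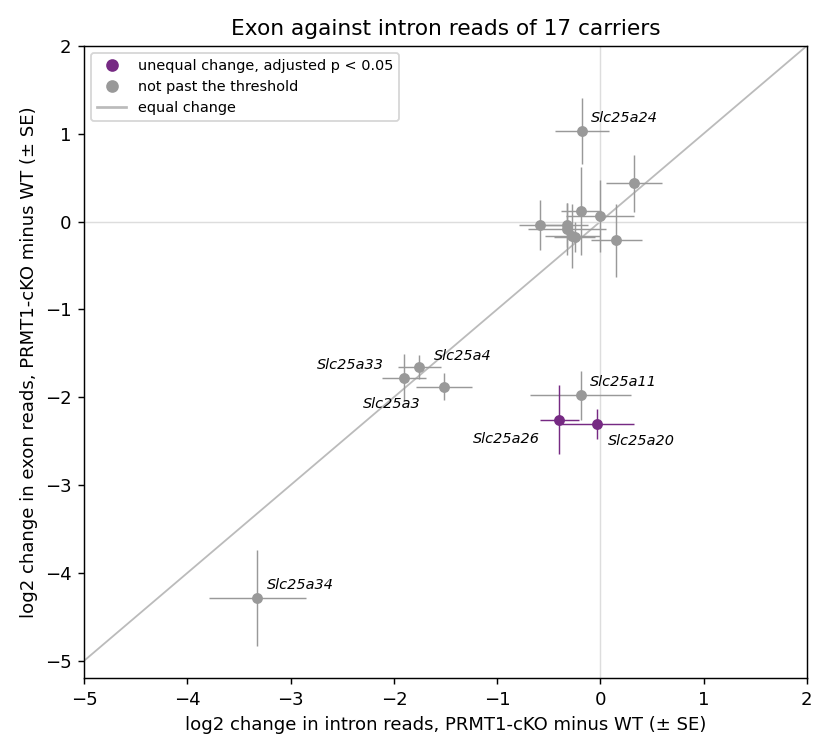
Log2 change in exon reads (y axis) against log2 change in intron reads (x axis), PRMT1-cKO minus WT with SE, for the 17 carriers tested in both. Slc25a20 and Slc25a26, in purple, lie far below the line of equal change, while Slc25a4, Slc25a33 and Slc25a3 lie near it at changes between -1.51 and -1.90.

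Genes that work with the carriers were read from lists chosen with earlier results known. Of 5 relatives outside the naming rule, all tested in gene reads, 1 fell and none rose, beside 11.2% of all genes lower and 11.5% higher. Ucp1, the uncoupling protein of brown fat, had 70 and 47 gene reads in WT against 3 and 11 in PRMT1-cKO, a log2 change of -3.20 ± 0.42 (adjusted p = 1.49e-05). Ucp2 at 0.67 ± 0.24, Ucp3 at -1.40 ± 0.52, Mtch1 at 0.39 ± 0.24 and Mtch2 at -0.65 ± 0.25 did not pass, with adjusted p of 0.053, 0.0589, 0.263 and 0.0688.

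Of 12 tested genes of the import machinery that brings carriers to the inner membrane, 5 fell and none rose in gene reads, where 11.2% of all genes were lower and 11.5% higher, with a median log2 change of -0.69. Timm13, a small intermembrane-space chaperone, changed by -1.14 ± 0.28, the outer membrane pore Tomm40 by -1.07 ± 0.28 and its small subunit Tomm5 by -0.89 ± 0.25 (adjusted p of 0.0059, 0.00811 and 0.0121). None of the 240 gene reads of Tomm40 were exon reads, so its change rests on intron reads. Without WT replicate 1 the calls of Tomm40 and Tomm5 were lost (adjusted p of 0.162 and 0.18), and without WT replicate 2 that of Timm13 (adjusted p = 0.0784).

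Among 11 partner enzymes of the shuttles 5 fell and none rose, again beside 11.2% of all genes lower, with a median log2 change of -0.39. The malate-aspartate shuttle enzymes Got1 and Mdh1 changed by -1.55 ± 0.21 and -1.28 ± 0.24 (adjusted p of 1.72e-05 and 4.99e-04). Got2, the matrix partner of Got1, changed by -1.10 ± 0.20 (adjusted p = 5.06e-04). Mdh2, the malate dehydrogenase of the matrix, did not pass (-0.39 ± 0.24, adjusted p = 0.293). It had 85 and 70 gene reads in WT against 60 and 73 in PRMT1-cKO, none of them exon reads. Cpt1b, the muscle enzyme that makes the acylcarnitines carried by Slc25a20, had 398 and 342 gene reads in WT against 143 and 179 in PRMT1-cKO, a log2 change of -1.37 ± 0.20 (adjusted p = 3.91e-05).

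Of 19 other transporters of the inner membrane 5 fell and 2 rose, beside the same 11.2% lower and 11.5% higher of all genes, with a median log2 change of -0.21. The pyruvate carrier subunits Mpc1 and Mpc2 changed by -1.73 ± 0.25 and -1.24 ± 0.22 (adjusted p of 3.5e-05 and 3.08e-04), and the inner membrane ABC transporter Abcb8 by -1.06 ± 0.34 (adjusted p = 0.0307). Only 3 of the 842 gene reads of Mpc1 and 2 of the 128 of Abcb8 were exon reads, so their changes rest on intron reads. The call of Abcb8 was lost without WT replicate 1 (adjusted p = 0.297) or PRMT1-cKO replicate 2 (adjusted p = 0.116).

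By the authors' deposited table, 10 carriers had a corrected p-value under 0.05, and all 10 were called here. The 2 called here alone were Slc25a26 and Slc25a31, for which the authors' deposited table gives corrected p-values of 0.112 and 0.0659. The signed fold change of Slc25a34 in the authors' deposited table is -14.1.

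The read filter removed 9 carriers in all 3 measures, Slc25a1, Slc25a2, Slc25a10 and Slc25a39 among them. Slc25a2 had 0 gene reads in every library, and 11 carriers, Slc25a13 and Slc25a42 among them, had 0 exon reads in every library. The limit that 0 exon reads set, 3 reads, lay from 3.92 to 5.51 CPM in the 4 libraries, so levels below it may be missed. By GENCODE M21, 23 of the 47 carriers overlap another annotated gene, and the sources used here do not tell whether counting used strand.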

How the data were processed

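Total RNA of 4 hearts was depleted of ribosomal RNA with a RiboMinus kit and made into SOLiD libraries, per the labels' protocols. The values are counts of gene, exon and intron reads that the authors deposited for each library, beside the exon length. From their EDGE test the authors deposited a corrected p-value and a score that holds the fold change with a sign, per the file headers. The submitters' processing notes name GRCm38; the sources used here do not give the aligner or the counter. For all 43346 genes, gene reads equal exon plus intron reads. Another 89 columns of the table were not used.

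Each measure was fitted over the whole table by quasi-likelihood in edgeR 4.0.16 under R 4.3.3: filterByExpr was run at its minimum count of 10 and minimum total count of 15, libraries were scaled by TMM, glmQLFTest compared genotypes two-sidedly with no other term, and p-values were adjusted by Benjamini-Hochberg with a threshold of 0.05. The SE is the log2 change over the root of the F statistic. CPM are counts per 1000000 of the TMM-scaled library. Exon and intron reads of a gene were compared with diffSpliceDGE (limma 3.58.1 was loaded with edgeR). DESeq2 1.42.0, other scalings and filters, a replicate block and libraries left out in turn were alternatives. Scripts were tested on simulated data.

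Carriers and lists were chosen with earlier results of these data known. Values per library are given for carriers past the threshold in gene reads with a mean of at least 20 reads, in exon reads or in exon against intron reads, and for the member with the most gene reads in each role. Other carriers shown, Slc25a5, Slc25a12, Slc25a17, Slc25a30, Slc25a31, Slc25a32, Slc25a36 and Slc25a51 among them, and Got2, Mdh2, Cidea and Plin1 were picked after their values were seen. Intervals and floors cover counting error only, and the sources used here do not tell how PCR duplicates were treated.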

Additional observations from a re-analysis of the deposited data

How the results depend on the processing

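The count of 12 carriers called in gene reads became 7 with a minimum count of 50, 7 with DESeq2 and between 7 and 13 with a library left out. The 8 called in exon reads ranged from 6 to 8 over all alternatives. The 9 called in intron reads became 4 with a minimum count of 50, 5 with DESeq2 and 5 to 10 with a library left out. The 2 carriers with unequal exon and intron change became 1 without a read filter, 0 of 5 tested with a minimum count of 50, 1 with the replicate block and 0 to 2 with a library left out. The replicate block gave 11 carriers in gene reads, 8 in exon reads and 8 in intron reads; the calls it ended were those of Slc25a26 in gene reads and in exon against intron reads and of Slc25a12 in intron reads. The labels do not say whether replicate numbers pair the hearts. Deviations of same-numbered libraries correlated at -0.124 in gene reads, -0.00916 in exon reads and -0.0934 in intron reads. With 1 difference between hearts in each genotype, these values cannot decide whether the numbers pair them. Crossing the numbers, an alternative chosen after seeing the data, called 14, 8, 11 and 2 carriers in gene reads, exon reads, intron reads and exon against intron reads. Over all genes, 3154 calls became 5243 with library size scaling and 1815 to 3664 with a library left out. Some log2 values changed sign, none of them past the threshold as reported or where the sign changed. With library size scaling they became 0.014 for Slc25a12, 0.43 for Slc25a13, 0.30 for Slc25a17 and 0.34 for Slc25a46 in gene reads, and 0.32 for Slc25a11, 0.49 for Slc25a20, 0.34 for Slc25a24 and 0.13 for Slc25a26 in intron reads; with the replicate block Slc25a20 in intron reads became 0.024. With a library left out, gene reads ranged from -0.61 to 0.24 for Slc25a13, -0.29 to 0.31 for Slc25a15, -0.036 to 0.44 for Slc25a24, -0.19 to 0.36 for Slc25a27 and -0.086 to 0.23 for Slc25a28. Exon reads ranged from -0.20 to 0.076 for Slc25a12, -0.28 to 0.43 for Slc25a15 and -0.26 to 0.21 for Slc25a17. Intron reads ranged from -0.81 to 0.27 for Slc25a11, -0.37 to 0.48 for Slc25a20 and -0.42 to 0.11 for Slc25a24, and exon against intron reads from -6.34 to 0.81 for Slc25a34 and -0.044 to 0.41 for Slc25a4. Adjusted p ranged over the alternatives from 0.0257 to 0.443 for Slc25a31, 0.004 to 0.142 for Slc25a38, 0.00474 to 0.228 for Slc25a42, 0.00532 to 0.921 for Slc25a26, 5.37e-05 to 0.105 for Slc25a44 and 2.16e-05 to 0.0624 for Slc25a37 in gene reads, and 0.0259 to 0.211 for Slc25a24 in exon reads. The cause of these changes was not tested, beyond the fewer genes tested at a minimum count of 50. Low exon read numbers limit what could be seen: 20 carriers tested in gene reads did not pass the read filter in exon reads. Where a library is left out, the lone heart of its genotype is assumed to vary like the other pair.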
